A study of Mus musculus with 3 samples.

Results

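The genes described here are 42 members of the machinery that decides between survival and death of a cell: the Bcl2 family, the caspases and their activators and inhibitors, the necroptosis and pyroptosis genes, and p53 with Mdm2. They were chosen by symbol from a fixed list and found by gene identifier in GENCODE M21, the mouse gene annotation, and all 42 were present among the 55536 annotated genes. The levels come from 3 polyA-selected RNA-seq libraries of activated regulatory T cells, the Foxp3-expressing CD4 T cells that restrain immune responses, from 1 male mouse, 9 weeks old. The labels name the libraries as technical replicates 1, 2 and 3 of a single biosample. The mouse strain, the sort and the way the cells were activated are not given in the labels. No other group was present, so the data hold no comparison between conditions, and each ± below is an SD over 3 technical replicates (n = 3) that contains no variation between animals.

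In the mitochondrial pathway of apoptosis, prosurvival Bcl2 proteins hold back Bax and Bak1, which otherwise perforate the outer mitochondrial membrane. BH3-only proteins occupy the groove of the prosurvival proteins, and cytochrome c released from mitochondria joins Apaf1 to activate Casp9. In regulatory T cells, Mcl1 is known as a factor their survival depends on and Bcl2l11 (Bim) as a factor that limits their number. Death receptors act instead through Fadd and Casp8, which Cflar (c-FLIP) restrains, and Ripk3 with Mlkl carries out necroptosis when Casp8 is inactive.

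Levels are in TPM, a gene's share of all transcripts in a library scaled to a fixed total, which is corrected for transcript length and so can be compared between genes within a library. The libraries held 31445344 to 37259281 expected counts, which are read counts after reads that match several places have been divided between them. The marker genes of the labelled cell type were present: Foxp3 stood at 138, 133 and 134 TPM in libraries 1, 2 and 3, and all 4 regulatory T cell markers and all 4 T cell markers were detected, with sums of 1209 to 1267 and 3998 to 4090 TPM. Markers of other cells summed to 22.0 to 24.4 TPM for CD8 T cells (2 of 2 detected), 36.6 to 50.8 TPM for B cells (4 of 4), 8.49 to 21.5 TPM for plasma cells (2 of 3), 46.6 to 50.5 TPM for macrophages and monocytes (4 of 5), 1.57 to 2.58 TPM for dendritic cells (1 of 3), 0.66 to 19.4 TPM for neutrophils (0 of 4) and 0.43 to 0.73 TPM for stroma (0 of 2). The 3 erythroid markers, all globin genes, summed to 588 to 823 TPM. No marker was at 0 in every library, and the part of such cells in the levels below was not tested. A level in bulk RNA cannot tell fewer cells with the transcript from less of it per cell.

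A gene was called detected when it reached at least 1 TPM in all 3 libraries. By this rule 37 of the 42 members were detected, against 47.3% of protein-coding genes and 22.7% of all annotated genes. The median level of the detected members was 54.5 TPM, against 29.2 TPM for detected protein-coding genes, and 26 of the 37 lay above that value. 7 members averaged at least 100 TPM, 25 averaged 10 to 100 TPM and 5 detected members averaged less than 10 TPM. In descending order the 7 were Mcl1, Bax, Casp8, Bcl2a1b, Gsdmd, Trp53 and Cflar. Cflar, the lowest of the 7, stood at percentile 87.0 of the detected protein-coding genes. The 5 members not detected were the prosurvival genes Bcl2l2 and Bcl2a1a, the effector Bok, the BH3-only gene Hrk and the inflammatory caspase Casp12.

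**Figure D1:**
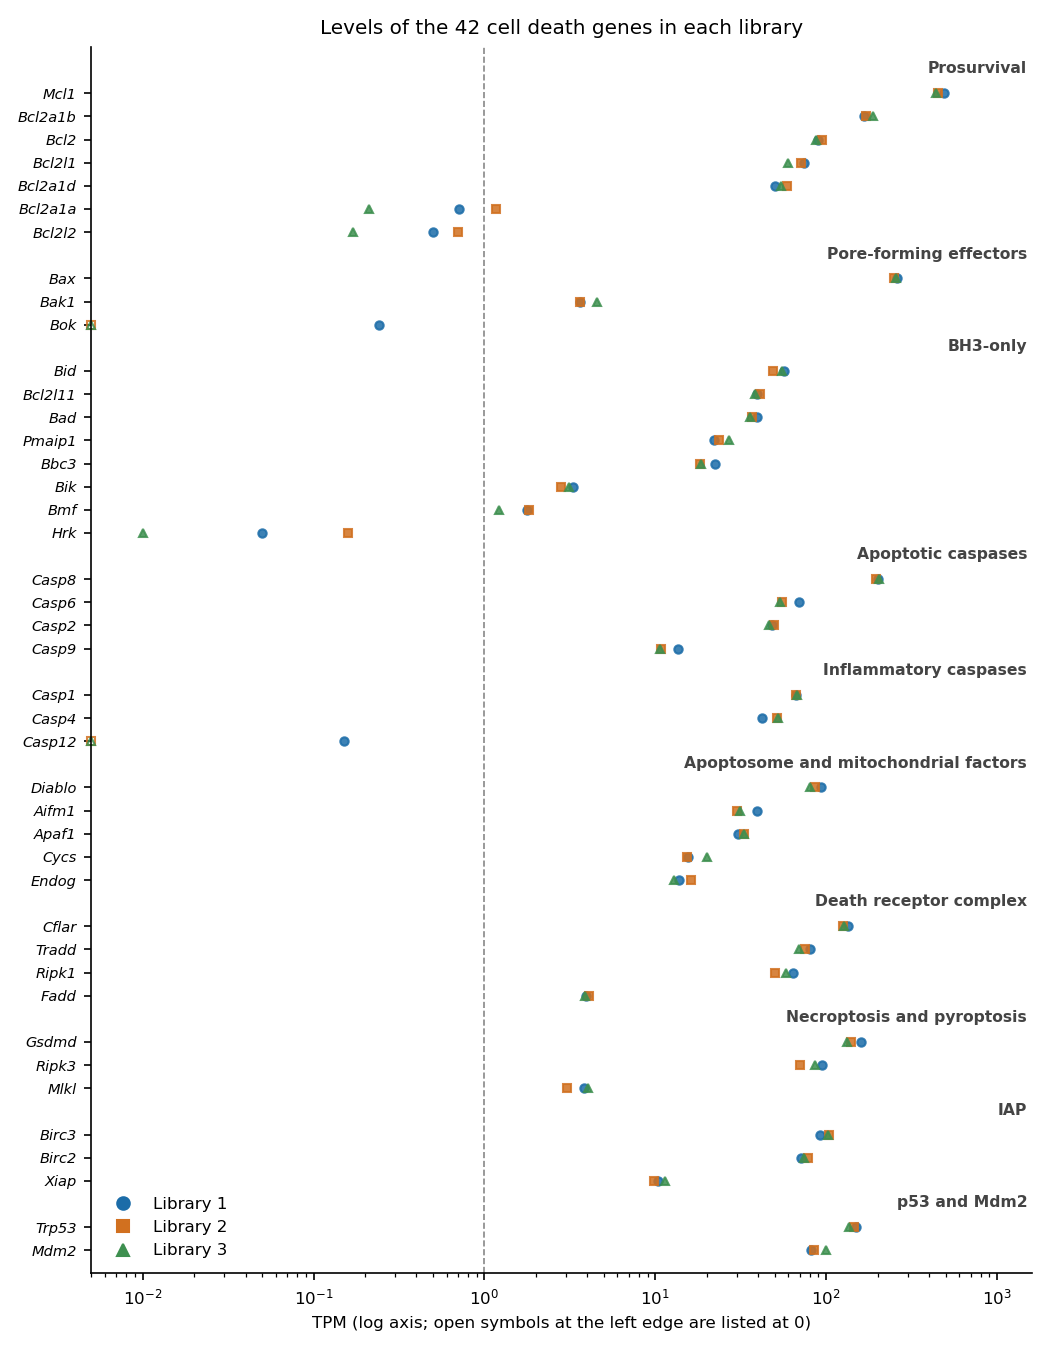
TPM of each of the 42 members in each library on a log axis, grouped by role, with each library as its own symbol and the dashed line at 1 TPM. The 3 libraries lie close together for most detected members, and Mcl1 stands at the top with 441 to 488 TPM. Open symbols at the left edge mark libraries in which Bok and Casp12 were listed at 0.

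Among the prosurvival genes, which bind and hold back the death-promoting members of the family, Mcl1 was the most abundant transcript. Mcl1 had 488, 451 and 441 TPM in libraries 1, 2 and 3, a mean of 460 ± 24.7 TPM, the highest of all 42 members. Bcl2, the founding member of the family, had 89.96, 94.0 and 87.2 TPM (90.4 ± 3.42). Bcl2l1, which encodes Bcl-xL, had 74.3, 71.5 and 59.4 TPM (68.4 ± 7.93). Mcl1 was therefore 5.09-fold above Bcl2, a log2 ratio of 2.35 ± 0.09, which was 1.48 in counts without length correction and 0.48 per coding base of the smaller gene table. Bcl2 was 1.33-fold above Bcl2l1, a log2 ratio of 0.41 ± 0.14, which turned to -0.48 per base of gene length in the smaller table and was 0.69 per coding base. Bcl2l2, which encodes Bcl-w, was close to silent at 0.50, 0.70 and 0.17 TPM, and Bcl2 exceeded it by a log2 ratio of 7.85 ± 1.02. A ratio is called larger than the spread between libraries where it had 1 sign in all 3 and its mean exceeded 2 SD. No p is given, since an exact sign-flip test over 3 libraries cannot go below 0.25. In TPM, all of these prosurvival ratios met that rule.

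The mouse has several copies of the prosurvival gene Bcl2a1 (A1), a target of NF-kB in activated lymphocytes, clustered on chromosome 9. Their coding sequences are shown because the deposited levels depend on how reads were divided between near-identical copies. On mm10, Bcl2a1a lies at chr9:88956900-88962419 (+ strand), Bcl2a1b at chr9:89199209-89207827 (+ strand) and Bcl2a1d at chr9:88723285-88731914 (- strand). The first 120 of the 516 coding bases, from GENCODE M21, follow with capitals at the positions at which the 3 copies are not all alike.
Bcl2a1a: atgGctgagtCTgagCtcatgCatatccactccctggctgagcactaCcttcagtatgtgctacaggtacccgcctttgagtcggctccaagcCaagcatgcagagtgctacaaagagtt
Bcl2a1b: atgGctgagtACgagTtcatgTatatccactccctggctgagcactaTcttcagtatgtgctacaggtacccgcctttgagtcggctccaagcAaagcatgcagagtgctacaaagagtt
Bcl2a1d: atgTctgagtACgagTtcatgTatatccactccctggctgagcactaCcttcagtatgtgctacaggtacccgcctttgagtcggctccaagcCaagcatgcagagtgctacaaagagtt

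Over the whole coding sequence the 3 copies differed at 12 of 516 positions, 7 of them in the stretch shown, and pairwise identity ran from 97.9% (Bcl2a1a with Bcl2a1b) to 98.8% (Bcl2a1b with Bcl2a1d). Reads of 50 bases cannot be placed where copies are identical over their length: 79.2% of the 50-base windows of Bcl2a1b, 79.5% of Bcl2a1d and 69.0% of Bcl2a1a also occurred in another gene on the same strand. With this limit, Bcl2a1b was listed at 166, 171 and 188 TPM (175 ± 11.5) and Bcl2a1d at 50.3, 58.6 and 54.5 TPM (54.5 ± 4.17), a log2 ratio of 1.68 ± 0.12. In the smaller gene table, a second count of the same libraries, that ratio was 0.38 per base of gene length and 0.30 per base of coding sequence. Bcl2a1a was listed at 0.71, 1.17 and 0.21 TPM, and its posterior SD, the uncertainty of the division of reads, was 57.4%, 41.2% and 132% of its count in libraries 1, 2 and 3. For Bcl2a1b that SD was at most 2.02% of the count. The sum over the 3 copies does not depend on the division among them: it was 217, 231 and 242 TPM, a mean of 230.0 ± 13.0 TPM. The annotated gene Gm29094, which shares windows with all 3 copies, had 53.5, 40.3 and 34.5 TPM, and with it the sum was 270, 271 and 277 TPM. The spread over libraries narrowed to an SD of 3.61 TPM when Gm29094 was included.

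The effectors that perforate the mitochondrial membrane were represented almost wholly by Bax. Bax had 258, 248 and 255 TPM (254 ± 4.94), the second highest of all members, and made up 98.4% ± 0.18 of the summed level of effectors. Bak1, the other main effector, had 3.60, 3.63 and 4.57 TPM (3.93 ± 0.55), and the Bax to Bak1 log2 ratio was 6.02 ± 0.19, or 64.9-fold. Of the Bak1 level, only 5.21% ± 5.95 was assigned to the transcript annotated as protein-coding, Bak1-202, while 51.8% ± 27.3 went to Bak1-204 and 42.9% ± 33.1 to Bak1-201, both annotated as targets of nonsense-mediated decay. On protein-coding transcripts only, Bak1 averaged 0.20 TPM, under the detection threshold. Bok had 4 counts in library 1 and none in libraries 2 and 3, where 3 counts, the limit that a count of 0 allows, would give 0.18 and 0.16 TPM. Such limits cover counting error only, since PCR copies of 1 molecule cannot be told from separate molecules in these tables.

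BH3-only genes encode the sensors that start mitochondrial apoptosis, named for a short helix, the BH3 motif, that binds the groove of prosurvival proteins. Coding stretches that match the pattern described next are shown for Bax, Bak1, Mcl1 and most of the detected BH3-only genes. A script translated the leading protein-coding transcript of each family member and searched it for a leucine, any 2 residues, a residue that is isoleucine, leucine, methionine or valine, a glycine, alanine or serine, and an aspartate. Capitals mark the codons of the leucine, of the small residue and of the aspartate.
Bid: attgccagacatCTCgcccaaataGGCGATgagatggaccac
Bcl2l11: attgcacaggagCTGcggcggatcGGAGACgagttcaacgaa
Bad: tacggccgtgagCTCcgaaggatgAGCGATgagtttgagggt
Bbc3: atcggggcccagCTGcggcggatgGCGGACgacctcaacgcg
Bik: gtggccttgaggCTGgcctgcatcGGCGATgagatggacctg
Bmf: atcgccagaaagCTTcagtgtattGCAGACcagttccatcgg
Bax: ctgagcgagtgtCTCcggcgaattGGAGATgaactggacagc
Bak1: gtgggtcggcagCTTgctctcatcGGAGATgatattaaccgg
Mcl1: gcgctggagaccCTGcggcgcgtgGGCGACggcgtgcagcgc

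The 42-base stretches begin at coding base 256 of Bid-201, 436 of Bcl2l11-205, 313 of Bad-202, 409 of Bbc3-201, 151 of Bik-201, 658 of Bmf-201, 175 of Bax-201, 214 of Bak1-202 and 568 of Mcl1-201, counted from the start codon. The pattern was found in 12 of the 18 family members searched. Besides the genes shown, these were Pmaip1, with 2 matches, Hrk and Bok. It was also found in 10.7% of 21630 protein-coding genes, each read from its longest coding transcript. A match alone therefore does not make a gene a family member. No match was found in the leading transcripts of Bcl2, Bcl2l1, Bcl2l2 or the Bcl2a1 copies, which says only that this pattern is not in those reading frames. The 2 members with the highest levels, Bax and Mcl1, both carried it.

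Bid, which links Casp8 to mitochondria, was the highest of the BH3-only genes with 56.7, 48.6 and 55.0 TPM (53.4 ± 4.30). Bcl2l11, which encodes Bim, had 39.1, 41.1 and 38.5 TPM (39.6 ± 1.37). Bad, which growth factor signalling restrains by phosphorylation, had 39.6, 36.6 and 35.7 TPM (37.3 ± 2.03). These 3 genes lay within a narrow range, with Bid 1.43-fold above Bad, a log2 ratio of 0.52 ± 0.11, while Bcl2l11 and Bad did not differ beyond their spread. The p53 target Pmaip1 (Noxa) had 21.9, 23.5 and 27.0 TPM (24.2 ± 2.61). Another p53 target, Bbc3 (Puma), had 22.3, 18.2 and 18.4 TPM (19.6 ± 2.30). The log2 ratio of Bbc3 over Pmaip1 was -0.30 ± 0.30, positive in library 1 and negative in libraries 2 and 3, so their order was not resolved. Bcl2l11 exceeded Bbc3 by a log2 ratio of 1.02 ± 0.19.

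Bik and Bmf were low. Bik had 3.29, 2.82 and 3.11 TPM (3.07 ± 0.24). Bmf had 1.77, 1.82 and 1.21 TPM (1.60 ± 0.34), the lowest of the 37 detected members, and Bcl2l11 exceeded it 25.1-fold, a log2 ratio of 4.65 ± 0.29. Hrk, whose expression is known mainly from neurons, had 5, 2 and 1 counts in libraries 1, 2 and 3, or 0.05, 0.16 and 0.01 TPM.

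Set side by side, the summed level of the 7 prosurvival genes was 870, 848 and 831 TPM (850 ± 19.5), of which Mcl1 made up 54.2% ± 1.73. The 8 BH3-only genes summed to 185, 173 and 179 TPM (179 ± 5.95), and the 3 effectors to 262, 252 and 259 TPM (258 ± 5.13). Prosurvival transcripts thus exceeded BH3-only transcripts 4.75-fold, a log2 ratio of 2.25 ± 0.04, and effector transcripts 3.30-fold, a log2 ratio of 1.72 ± 0.04. With members of whole expected counts only, the ratio of prosurvival to BH3-only sums was 1.90 on the log2 scale. That filter dropped Bcl2, Bcl2l2 and the Bcl2a1 copies from the prosurvival sum, which left 529 TPM. It dropped Bad from the BH3-only sum, which left 142 TPM. Transcript sums do not give the ratio of the proteins. Of the prosurvival to BH3-only balance within single pairs, Mcl1 exceeded Bcl2l11 11.6-fold, a log2 ratio of 3.54 ± 0.09. The log2 ratio of Bcl2l11 over Bcl2 was -1.19 ± 0.01, which had the smallest SD of the 23 pairs examined.

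**Figure D2:**
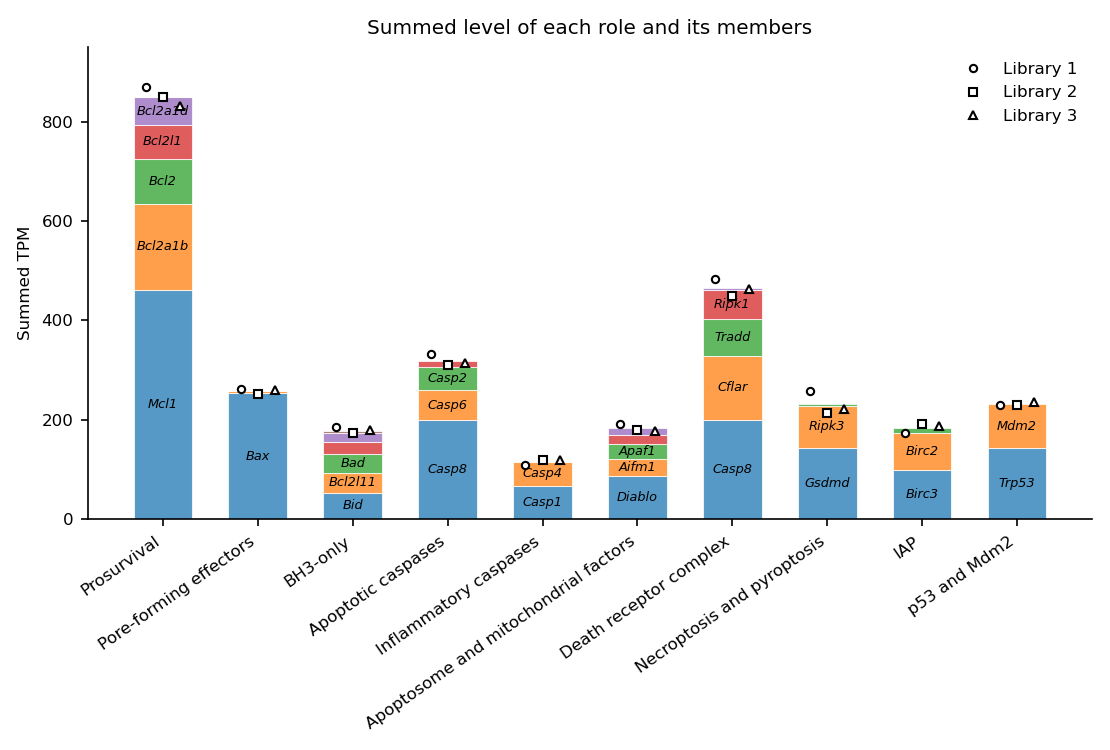
Mean summed TPM of each role, stacked by member, with 1 symbol for the sum in each library. The prosurvival sum of 850 TPM is led by Mcl1 and the effector sum of 258 TPM is almost all Bax. Casp8 is counted in both the apoptotic caspases and the death receptor complex, and segments under 28 TPM carry no name.

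Among the apoptotic caspases, the proteases that carry out the death programme, the initiator Casp8 led. Casp8 had 201, 194 and 204 TPM (200 ± 4.99), the third highest of all members, and made up 62.8% ± 2.14 of the 4 caspases listed. Casp6, an executioner, had 68.9, 55.2 and 53.6 TPM (59.2 ± 8.39), of which library 1 was the highest. In CPM, counts scaled to the library total, Casp6 had 46.1, 43.6 and 45.6 in libraries 1, 2 and 3. The retained intron Casp6-203 held 44.1%, 25.1% and 9.11% of Casp6 TPM. On protein-coding transcripts only, Casp6 had 37.85, 40.62 and 47.78 TPM, with library 3 the highest. Casp2, which acts after DNA damage through the PIDDosome, averaged 47.9 ± 1.76 TPM. Casp9, the initiator activated by Apaf1, had 13.5, 10.8 and 10.6 TPM (11.6 ± 1.65). Casp8 exceeded Casp9 by a log2 ratio of 4.11 ± 0.19, or 17.3-fold.

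Of the inflammatory caspases, Casp1, which matures interleukin-1 beta, had 66.5, 66.9 and 67.1 TPM (66.8 ± 0.28), in TPM the smallest relative spread of the members. In counts scaled to the library total the smallest was that of Bax, with an SD of 0.74% of the mean against 1.61% for Casp1. Casp4, which in the mouse senses cytosolic lipopolysaccharide, had 41.96, 51.5 and 51.95 TPM (48.5 ± 5.64), with library 1 below the other libraries. Casp1 exceeded Casp4 by a log2 ratio of 0.47 ± 0.17. Only 54.3% ± 5.23 of the Casp4 level came from its protein-coding transcript, and on protein-coding transcripts the ratio was 1.36. Casp12 had 4 counts in library 1 and none in the others, where 3 counts would give 0.08 and 0.07 TPM.

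The apoptosome and the factors released by mitochondria were all detected. Diablo (Smac), which relieves caspases of their IAP inhibitors, led with 93.2, 85.7 and 80.8 TPM (86.6 ± 6.29). Apaf1, the scaffold of the apoptosome, had 30.4, 32.9 and 33.1 TPM (32.1 ± 1.52). Casp9 was lower than its activator Apaf1 by a log2 ratio of -1.47 ± 0.27. Aifm1 and Endog, which encode a flavoprotein and a nuclease that act on nuclear DNA when released, averaged 33.6 ± 5.21 and 14.2 ± 1.69 TPM. Endog is overlapped by Spout1 on the opposite strand over 32.8% of its 50-base windows, and its count was not whole in the tables, so reads of the 2 genes may not be fully separated.

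Cycs, which encodes somatic cytochrome c, was listed at 15.5, 15.3 and 19.95 TPM (16.9 ± 2.63), with library 3 the highest. This value is uncertain, because 25.9% of the 50-base windows of Cycs also occurred in other genes. The annotated gene Gm10053 shares 25.3% of them and was listed at 131, 157 and 156 TPM, and Gm10108, which shares 6.74%, at 118, 115 and 114 TPM. How much of the level of these genes comes from Cycs cannot be told apart from the deposited tables.

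Around the death receptor complex, the adaptor Fadd was low next to its partners. Fadd had 3.95, 4.10 and 3.86 TPM (3.97 ± 0.12). Tradd, the adaptor of TNF receptor 1, had 79.9, 75.02 and 69.1 TPM (74.7 ± 5.40). Fadd was below Tradd by a log2 ratio of -4.23 ± 0.09, the same order in all 3 libraries. Ripk1, the kinase scaffold of this complex, had 63.9, 50.05 and 58.2 TPM (57.4 ± 6.94). Cflar, the caspase-like inhibitor of Casp8, had 133, 126 and 127 TPM (129 ± 3.99), and Casp8 exceeded it 1.55-fold, a log2 ratio of 0.63 ± 0.04. That ratio rests on which transcripts are counted: 39.2% ± 1.94 of Cflar TPM was assigned to Cflar-208, a processed transcript of 378 bases that held 5.96% of the counts of Cflar. On protein-coding transcripts only, Cflar averaged 54.0 TPM and Casp8 exceeded it by 1.89 on the log2 scale. The ligand Fasl and the receptor Fas, from the wider list, averaged 4.95 ± 0.95 and 59.3 ± 1.27 TPM.

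The genes of necroptosis and pyroptosis were unequal. Ripk3, the kinase that triggers necroptosis, had 94.4, 70.7 and 86.0 TPM (83.7 ± 12.03). Mlkl, the protein that Ripk3 phosphorylates and that ruptures the plasma membrane, had 3.80, 3.03 and 4.04 TPM (3.62 ± 0.53). Ripk3 thus exceeded Mlkl 23.1-fold, a log2 ratio of 4.53 ± 0.11, and for both genes library 2 was the lowest. Gsdmd, the pore-forming target of inflammatory caspases, had 159, 140 and 132 TPM (144 ± 14.04). Mlkl was below Gsdmd by a log2 ratio of -5.32 ± 0.26. Protein-coding transcripts made up 57.1% ± 0.51 of Gsdmd, or 82.0 TPM. The log2 ratio of Ripk1 over Ripk3 was -0.54 ± 0.04 in TPM and turned to 0.62 in CPM, counts scaled to the library total with no length correction.

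The inhibitor of apoptosis proteins (IAP) restrain caspases or, for Birc2 and Birc3 (cIAP1 and cIAP2), ubiquitinate Ripk1. Birc3 had 92.0, 104 and 103 TPM (99.5 ± 6.50), and Birc2 had 71.5, 77.8 and 73.7 TPM (74.3 ± 3.16). Birc2 was below Birc3 by a log2 ratio of -0.42 ± 0.06, although CPM did not resolve them. Xiap, a direct inhibitor of active caspases, had 10.4, 9.76 and 11.3 TPM (10.5 ± 0.79), the lowest of the 3. The log2 ratio of Xiap was -2.83 ± 0.15 over Birc2 and -3.05 ± 0.18 over its antagonist Diablo.

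Trp53, the tumour suppressor p53, had 149, 145 and 136 TPM (143 ± 6.68). Mdm2, the ubiquitin ligase that degrades p53 and is itself a p53 target, had 81.5, 84.3 and 99.04 TPM (88.3 ± 9.41). The log2 ratio of Trp53 over Mdm2 was 0.70 ± 0.22, smallest in library 3, where Trp53 was lowest and Mdm2 highest. In CPM the ratio was 0.17 ± 0.19 and no longer beyond the spread, and on protein-coding transcripts only it was 1.37.

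**Figure D3:**
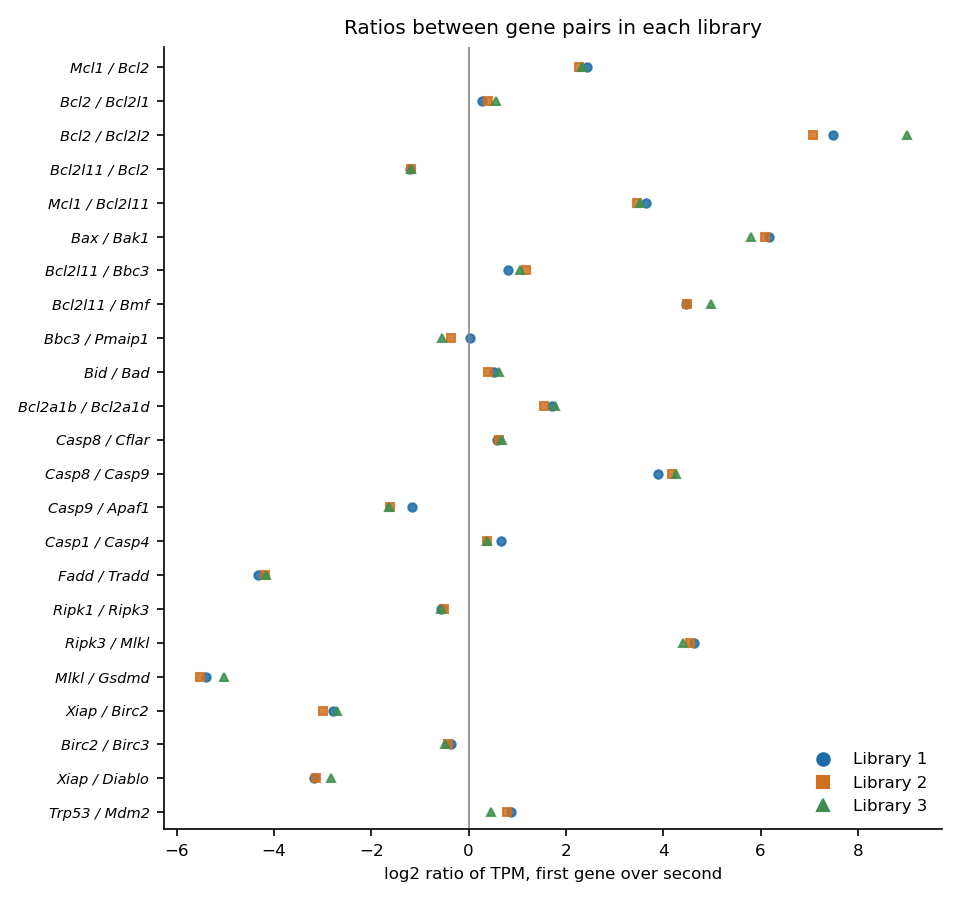
log2 ratio of TPM for the 23 gene pairs, first gene over second, with 1 symbol per library and a line at 0. The symbols of 22 pairs lie on 1 side of 0 and apart from it by more than their spread. The symbols of Bbc3 over Pmaip1 fall on both sides.

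In all, 22 of the 23 pairs met the rule for a difference beyond the spread. The size of a ratio depended on the measure: it moved by over 1.5 times in 13 of 23 pairs in CPM and in 9 of 22 per coding base of the smaller table, and in 0 of 23 when any 1 library was left out. Among the 36 pairs of neighbours in the order of the 37 detected members, 9 met the rule for a difference beyond the spread. The steps that did were those from Mcl1 to Bax, Bax to Casp8, Casp8 to Bcl2a1b, Trp53 to Cflar, Cflar to Birc3, Casp2 to Bcl2l11, Apaf1 to Pmaip1, Xiap to Fadd and Bik to Bmf. The 15 members from Birc3 down to Casp2 formed a run of neighbours, at 99.5 to 47.9 TPM, with no step beyond the spread. The largest step within the detected members by log2 ratio was from Xiap to Fadd, 1.40 ± 0.15.

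Several members were made up of transcripts that code for different proteins or for none. The leading transcript held over 50% of the gene's TPM in 33 of the 37 detected members and over 90% in 7, and it was annotated as protein-coding in 35. Mcl1-201, which codes for the full-length protein of 331 codons, held 74.3% ± 4.51 of Mcl1, and the shorter Mcl1-202 held 25.7% ± 4.51. By counts, Mcl1-201 held 92.3% and Mcl1-202, which is 858 bases long, 7.72%. Mcl1-201 alone averaged 341 TPM. Bcl2l1-201, with 233 codons, held 77.3% ± 1.66 of Bcl2l1, followed by Bcl2l1-205 (209 codons) with 11.5% ± 1.54 and Bcl2l1-202 (233 codons) with 5.31% ± 4.21. Bcl2l11-205, with 196 codons, held 57.9% ± 5.24 of Bcl2l11, while Bcl2l11-202 (91 codons) held 14.8% ± 3.03. The processed transcript Bcl2l11-208 held 13.9% ± 3.29 and Bcl2l11-201 (110 codons) held 6.82% ± 2.52. For each of these 3 genes, the leading transcript coded for the longest of the proteins listed. Bid-201 held 97.2% ± 0.71 of Bid, and Bax-201, of 192 codons, held 55.4% ± 4.02 of Bax beside Bax-203 with 22.3% ± 0.26 and Bax-205 with 20.8% ± 3.98.

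Bcl2 was divided between Bcl2-202, of 1 exon and 199 codons, at 50.5% ± 2.49, and Bcl2-201, of 236 codons, at 49.5% ± 2.49. By counts Bcl2-201, which is 7191 bases long, led with 71.4%. Among caspases, Casp8-202 held 79.8% ± 2.00 and Casp8-201 13.2% ± 0.94, both with 480 codons. Casp2-201 held 85.3% ± 1.05 and Casp9-201 84.9% ± 5.86, each followed by a processed transcript, Casp2-206 with 7.00% ± 0.85 and Casp9-203 with 13.3% ± 4.02. Most of the TPM of these caspases came from transcripts annotated as protein-coding. For Aifm1, Aifm1-201 held 81.0% ± 6.80 and the processed transcript Aifm1-205 14.9% ± 6.96. For Diablo, Diablo-203 held 75.2% ± 1.21, Diablo-207 13.2% ± 1.12 and the nonsense-mediated decay target Diablo-206 6.18% ± 1.84.

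In Cflar the leading transcript, Cflar-208, held the smallest share of TPM among the leading transcripts of the 37 detected members, although Xiap had more transcripts from 5%, at 6 against 5. Behind Cflar-208, the coding transcripts Cflar-205 and Cflar-201, both of 481 codons, which is the long form, held 17.3% ± 1.09 and 11.0% ± 0.81, the shorter Cflar-204 (215 codons) held 12.8% ± 0.58 and the processed transcript Cflar-207 7.23% ± 2.38. Mdm2-201, of 489 codons, held 56.0% ± 3.80 of Mdm2, followed by the nonsense-mediated decay target Mdm2-209 with 19.0% ± 4.23, the processed transcript Mdm2-206 with 6.82% ± 2.13 and the retained intron Mdm2-204 with 5.29% ± 0.22. For Trp53 the division between transcripts differed more between libraries than the gene's level did: Trp53-201 held 74.96%, 10.2% and 64.7% in libraries 1, 2 and 3, and Trp53-203 held 7.15%, 74.4% and 17.5%. These transcripts differ in only 1 of the 1723 windows of 50 bases of Trp53-201, so reads of that length can hardly tell them apart. Trp53-202 held 12.3% ± 1.34. Bak1, Bcl2, Bmf and Trp53 were the 4 members whose leading transcript was not the same in every library.

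**Figure D4:**
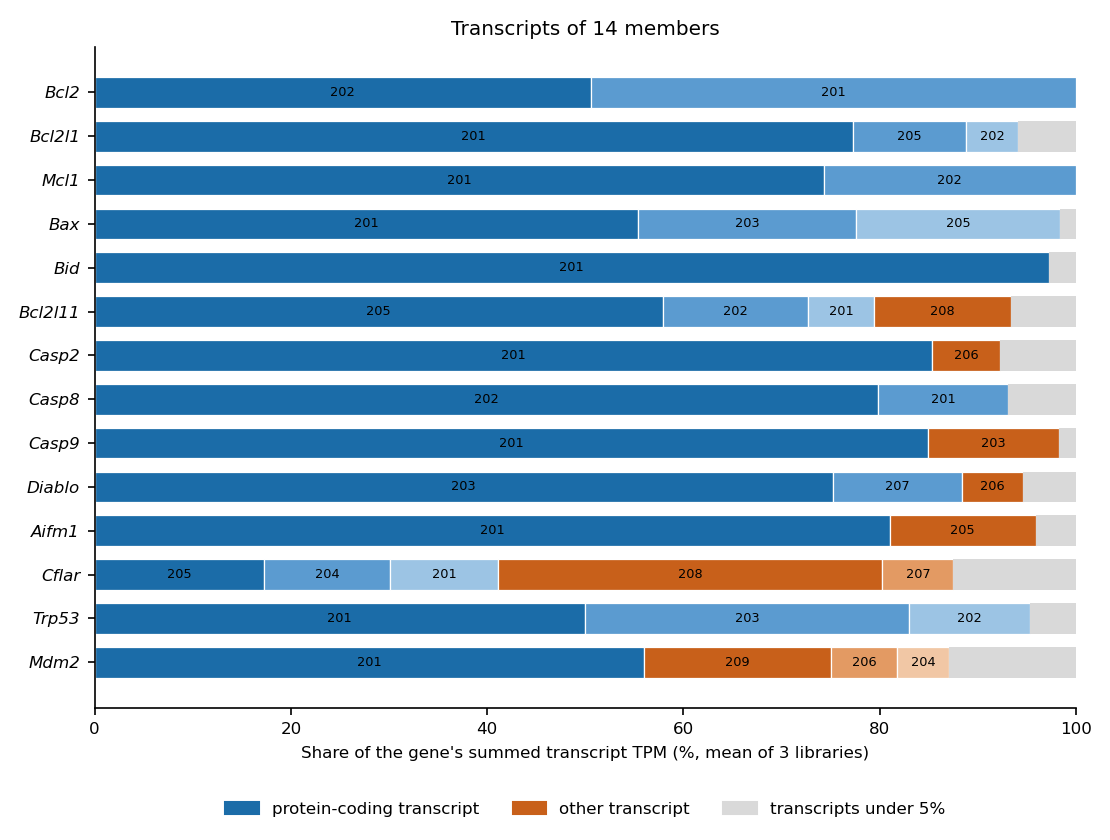
Share of each gene's summed transcript TPM held by its transcripts, as the mean of 3 libraries, for 14 members. Blue segments are protein-coding transcripts, orange segments are other transcripts and grey is the sum of transcripts under 5%, with numbers giving the transcript suffix. Cflar and Mdm2 have the largest orange shares.

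The libraries, though made from 1 biosample, differed beyond counting noise for most genes. A chi-square test of equal shares of the counts over the 3 libraries, with Benjamini-Hochberg adjustment over 15945 genes at 0.05, called 30 of the 39 members tested, or 76.9%, against 65.8% of all genes tested. Where the mean count reached 1000, it called 21 of 25 members and 74.9% of all genes. The difference between these shares was not tested, and a floor of 1000 counts does not match the genes for depth. The median variation beyond counting noise was 7.99% of the level in members and 8.52% in all genes tested, which is not matched for depth. Where the mean count reached 1000, the order was reversed, with a median of 5.99988% in members and 4.90716% in all genes. The difference between these medians was not tested. When the test was scaled to the overdispersion shared by all genes, a factor of 8.61, it called 1 member, Ripk1, and 1.85% of all genes.

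The largest excess variation among the members called was in Bcl2a1a (61.8%), Bcl2l2 (45.9%), Bmf (25.3%), Cycs (17.5%), Ripk1 (12.6%) and Endog (11.6%). Bcl2l2 had 34, 38 and 13.7 expected counts in libraries 1, 2 and 3 and Bmf 135, 110 and 92. Library 3, the deepest, thus held the fewest of both. Bcl2l2 shares 12.1% of its windows with the annotated gene Gm20521 on the same strand. Gm20521 had 0, 0 and 6.94 expected counts in libraries 1, 2 and 3. In library 3 the posterior SD of Bcl2l2 was 10.7% of its count. Whether the division of reads with Gm20521 lowered the library 3 count of Bcl2l2 was not tested. Ripk1 had 4194, 3404 and 4779 expected counts, or 134, 105 and 128 CPM, lowest in library 2. Bcl2a1a, Cycs and Endog are also members with shared sequence, as described above. At the other end, Bax, Bik, Casp1 and Fadd showed no variation beyond counting noise.

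Of the 42 members, 21 had expected counts in all 3 libraries that were whole within 0.005 and 21 did not, which marks reads divided with another gene. 15 members had no 50-base window in common with any other gene, and all 15 had whole counts. 20 members shared windows on the same strand, and 18 of these had counts that were not whole. The other 7 shared windows only with a gene on the opposite strand, 3 of which had counts that were not whole and 5 a posterior SD above 0. Among them Bad shares 17.2% of its windows with Gpr137 and Bid 16.4% with Bcl2l13, and the strand setting of the authors' counting was not stated in the sources at hand.

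The wider list of 67 other cell death genes had 58 members detected and 14 at 100 TPM or more, with a median of 41.3 TPM over the detected. Of all protein-coding genes 47.3% were detected, with a median of 29.2 TPM over the detected. The 8 highest were Pycard (497 ± 32.6 TPM), the inflammasome adaptor ASC, Bnip3l (375 ± 29.1), a mitophagy receptor, Zbp1 (269 ± 5.01), a nucleic acid sensor upstream of Ripk3, Rbck1 (239 ± 9.46), Bag1 (198 ± 12.1), Tmbim6 (192 ± 5.50), Sharpin (184 ± 4.28) and Ccng1 (180 ± 7.06). Rbck1 and Sharpin are subunits of the linear ubiquitin ligase complex at the TNF receptor, whose catalytic subunit Rnf31 averaged 56.2 ± 5.24 TPM. Pycard had 470, 533 and 487 TPM, above Mcl1 in libraries 2 and 3 and below it in library 1. Casp14, Bcl2l10 and Gsdmc were listed at 0 in every library. Cdkn1a, the cell cycle inhibitor induced by p53, averaged 7.81 ± 1.32 TPM.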

How the data were processed

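The members and gene lists were chosen with earlier results of these data known. Per the labels and sample notes, the authors made the larger gene tables and transcript tables on mm10 with GENCODE M21, and deposited expected counts, TPM and FPKM. The smaller gene tables hold whole-number counts that the authors made with GENCODE M4. The transcript tables also hold a share in percent that the authors deposited; shares were recomputed here from TPM. The aligner and quantification program were not stated in the sources at hand. TPM was used as deposited for levels, sums and ratios, with no pseudocount. For the chi-square test, expected counts were rounded. It used genes with a summed count of at least 30. Scaling alternatives came from edgeR 4.0.16 and DESeq2 1.42.0. Rows that name no annotated gene, 0.125% to 0.182% of the counts, were left out. Tested on simulated data over 15945 genes, the chi-square test recovered 50%, 64%, 92% and 100% of genes changed 1.2, 1.5, 2 and 4-fold in 1 library. The simulated counts had counting noise only, without the overdispersion of the libraries, so these rates do not describe the test on the deposited counts. Shared sequence was measured as windows of 50 bases, the read length that the effective lengths give, across all annotated transcripts. Coding sequences were cut from GENCODE M21 transcripts by the annotation. Values are named for the members of the listed pairs, the highest member of each role, members under 1 TPM in any library, the Bcl2a1 copies and Cycs. Python 3.11.15, pandas 2.3.3 and scipy 1.17.1 were used.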

Additional observations from a re-analysis of the deposited data

How the results depend on the processing

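The depth of 31445344 to 37259281 counts per library leaves Bok, Hrk and Casp12 near the limit that a count of 0 allows. The number of members detected stayed between 32 and 37 of 42 under other thresholds, units, tables and with each library left out, and the pairs beyond the spread between 21 and 23. CPM, without length correction, moved the log2 ratio of prosurvival over BH3-only sums to 2.35 and that of prosurvival over effectors to 3.18. CPM also turned Ripk1 over Ripk3 to 0.62, and Birc2 over Birc3 (-0.31) and Trp53 over Mdm2 (0.17) were no longer beyond the spread. Members with whole counts only, a filter that dropped Bcl2 and the Bcl2a1 copies as whole genes, gave 1.90 for prosurvival over BH3-only. Protein-coding transcripts, an alternative added after seeing the data, gave 2.36 and 1.77 for these 2 ratios. The members called as varying between libraries numbered 1 with overdispersion scaling (Ripk1), 11 of 36 in the smaller table, where 33.5% of all genes were called, and 17 to 21 with 1 library left out (41.1% to 48.6% of all genes).

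The smaller table per base of gene length reversed Bcl2 over Bcl2l1 (-0.48), Bcl2l11 over Bbc3 (-0.33), Bbc3 over Pmaip1 (1.21) and Bid over Bad (-0.68). Per base of coding sequence, an alternative added after seeing the data, the smaller table gave 0.69, 0.59, -0.32 and 1.02 for the same pairs, the direction of the TPM ratios. In that table the median count per coding base was 0.15 for genes with a mean expected count of 100 to 1000 and 1.63 for genes from 10000, where 89 of 541 genes exceeded 2 per coding base. Mcl1 stood at 2.06. The cause was not tested. No paired analysis was possible because there was 1 group.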

Other observations

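In the smaller gene table, the counts of members ranged widely as a share of the expected counts in the larger table. Cycs stood at 0.18%, Bcl2a1b at 3.48% and Bcl2a1d at 8.58%, against medians of 49.2%, 42.2% and 49.2% in genes of like depth, while Endog stood at 126% against 54.5%. Of these, Cycs and the Bcl2a1 copies share sequence with other genes on their own strand and Endog overlaps Spout1 on the opposite strand. Among other members, Mcl1 stood at 7.74%, Pmaip1 at 10.7%, Bcl2 at 11.4% and Bcl2l11 at 12.04%, against medians of 9.78%, 47.6%, 27.2% and 41.5% in genes of like depth. The coding sequence made up 29.1%, 11.3%, 7.96% and 8.06% of their merged exons. Protein-coding genes with a mean expected count of 1000 to 2000 were ordered by that coding share into 4 groups of 531 or 532. The median of the smaller table over the larger was 64.1% in the group with the largest coding share and 32.2% in the group with the smallest.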
